A study of Mus musculus with 20 samples.

Results

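The interferon-stimulated genes examined here were Isg15, Ifit1, Ifit2, Ifit3, Rsad2, Irf1, Irf7, Irf9 and Stat2, chosen by symbol as interferon-induced effectors and the Irf and Stat factors that act with them, and all 9 were found among the 24062 gene symbols of the count files. They were measured by RNA sequencing of dermal lymphatic endothelial cells (LECs), the cells that line the lymphatic vessels of skin, sorted as CD31+podoplanin+ cells from the ears of wild type C57BL/6 mice (C57BL/6N in the study's methods) at post natal day 56. The groups were ZT1, ZT7, ZT13 and ZT19 (Zeitgeber time, hours after lights on in a cycle of 12 h light and 12 h dark), with 5 replicates each and 20 libraries in all. All groups were wild type and the labels name no treatment or altered allele, so the time of day was the comparison; the methods state that light cabinets were used to shift the cycle of mice. A replicate was a pool of 2 mice (4 ears), from which 3000 to 5000 cells were sorted at a purity that the study's methods give as above 90%. The data asked whether the mRNA of these genes in LECs differed with the time of day.

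Interferons are secreted proteins that alert cells to infection. Type I interferons bind the receptor made of Ifnar1 and Ifnar2, the kinases Jak1 and Tyk2 at that receptor activate Stat2, which works with Irf9 in the factor ISGF3. ISGF3 binds the interferon-stimulated response element, a DNA motif built of repeated GAAA letters, in the promoters of effectors such as Isg15, Rsad2 and the Ifit genes. Interferon gamma acts mainly through TTCNNNGAA motifs and induces Irf1. Lymphatic endothelial cells carry interferon receptors, and a low level of these genes is kept up in many tissues without infection.

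The promoters are shown because these genes are known as targets of such factors. The letters GAAA, any 2 bases and GAAA again, the core of the response element, were searched on both strands, with overlaps allowed, in the 250 bases before each start site in RefSeq (GRCm38.p6), and 5 of the 9 genes had a match at a start site: Isg15 with 3 overlapping matches, Ifit1 and Ifit3 with 2 each, and Rsad2 and Stat2 with 1 each. Over all RefSeq promoters of that length, 2.98% of 32851 held the motif. Capitals mark it in these windows, each printed 5′ to 3′ toward the start site: Isg15 at chr4:156200819-156201068 on the minus strand, Ifit1 at chr19:34640639-34640888 on the plus strand, Ifit3 at chr19:34583279-34583528 on the plus strand, Rsad2 at chr12:26456453-26456702 on the minus strand and Stat2 at chr10:128270248-128270497 on the plus strand.
Isg15: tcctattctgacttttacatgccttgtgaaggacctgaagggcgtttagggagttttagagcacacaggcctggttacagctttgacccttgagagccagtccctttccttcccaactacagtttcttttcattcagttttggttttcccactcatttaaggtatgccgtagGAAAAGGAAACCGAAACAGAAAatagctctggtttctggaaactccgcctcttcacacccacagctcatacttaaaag
Ifit1: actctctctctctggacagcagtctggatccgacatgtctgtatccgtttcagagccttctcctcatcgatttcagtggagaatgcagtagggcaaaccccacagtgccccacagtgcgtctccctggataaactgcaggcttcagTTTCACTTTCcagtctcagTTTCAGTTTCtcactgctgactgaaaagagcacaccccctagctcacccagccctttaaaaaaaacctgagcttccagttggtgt
Ifit3: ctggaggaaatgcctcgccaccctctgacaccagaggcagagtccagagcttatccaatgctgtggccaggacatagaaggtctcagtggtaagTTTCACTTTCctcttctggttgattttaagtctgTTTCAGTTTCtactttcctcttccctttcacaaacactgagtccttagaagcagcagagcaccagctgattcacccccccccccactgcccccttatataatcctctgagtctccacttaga
Rsad2: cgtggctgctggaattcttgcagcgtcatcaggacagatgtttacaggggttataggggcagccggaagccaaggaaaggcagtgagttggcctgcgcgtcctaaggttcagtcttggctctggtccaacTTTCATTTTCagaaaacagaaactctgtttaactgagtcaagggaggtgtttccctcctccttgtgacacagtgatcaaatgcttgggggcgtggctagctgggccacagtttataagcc
Stat2: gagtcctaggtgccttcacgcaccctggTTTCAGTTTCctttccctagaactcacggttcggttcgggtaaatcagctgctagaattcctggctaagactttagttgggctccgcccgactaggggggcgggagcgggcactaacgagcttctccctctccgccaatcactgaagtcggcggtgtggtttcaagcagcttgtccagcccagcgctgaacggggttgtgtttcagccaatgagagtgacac

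The letters TTCNNNGAA, read on both strands, were found in 7.02% of all promoters and before a start site of Ifit2 and of Irf1. They are capitalised for the first of the 2 Irf1 start sites, chr11:53769764-53770013 on the plus strand, because Irf1 was the member with every ZT19 library above every ZT1 library.
Irf1: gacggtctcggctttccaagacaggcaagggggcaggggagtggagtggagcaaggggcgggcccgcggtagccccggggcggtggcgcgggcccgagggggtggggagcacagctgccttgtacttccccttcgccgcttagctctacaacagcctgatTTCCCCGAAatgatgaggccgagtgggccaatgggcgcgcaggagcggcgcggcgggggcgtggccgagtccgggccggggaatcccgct
Neither motif was found before the RefSeq start sites of Irf7 and Irf9. The E-box CACGTG, bound by the clock factors BMAL1 and CLOCK, was in 6.02% of all promoters and in the 250 bases before a start site of 0 of the 9 genes. These are matches of letters in 1 window per start site, and they are given as a description.

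Between 4475111 and 42002363 reads per library were counted on genes, with a median of 9379794. The share of reads on genes, among those counted on a gene or outside all genes, was 12.7% to 81.6% and unequal between the time points. It lay between 20.2% and 29.5% for ZT1, 12.7% and 62.3% for ZT7, 20.1% and 79.9% for ZT13, and 35% and 81.6% for ZT19. What the reads outside genes came from was not tested, nor was their part in low normalized counts. The number of genes with a count had a median of 20692, 20002 and 19732 in the ZT1, ZT7 and ZT13 libraries and of 15613 in those of ZT19. ZT13 replicate 5 and ZT19 replicate 1 stood apart with the highest shares, and several of the members' differences are also given without both. Of 7 lymphatic endothelial markers 6 were present in all 20 libraries, among them Prox1 and Lyve1, and Ccl21a was at 0 in every library. The summed normalized count of 8 keratinocyte markers was 32694 to 67638 for ZT1, 55950 to 171118 for ZT7, 9711 to 28985 for ZT13 and 88665 to 177704 for ZT19, so that ZT19 overlapped neither ZT1 nor ZT13, with 4 of the 8 called among the time points. That of 6 fibroblast markers was 259 to 16045 over all libraries, with 0 called. At ZT19 every keratinocyte sum was above every lymphatic endothelial sum, and such sums over different genes do not give shares of cells.

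All 9 genes passed the filter on low counts. In edgeR's quasi-likelihood test among the 4 time points, with Benjamini-Hochberg adjustment over the 19209 genes tested, 0 of the 9 genes were called at an adjusted p of 0.05, beside 0.422% of all genes. At an unadjusted p of 0.05 there was 1 of 9, Stat2, beside 15.7% of all genes, and DESeq2 also called 1, Stat2 (adjusted p = 0.0300), beside 3.45% of the genes it tested. For a curve with a period of 24 h, edgeR called 0 of the 9 genes after adjustment and 0 at an unadjusted p of 0.05, beside 0.0312% and 9.23% of all genes, and DESeq2 called 0 of the 7 to which it gave an adjusted p (not Isg15 and Ifit3), beside 0.739%.

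Between the 6 pairs of time points, edgeR called 0 of the 9 genes after adjustment, and DESeq2 made 4 calls. For ZT7 against ZT1, 1 of 9 had an unadjusted p of at most 0.05 in edgeR, where 4.97% of all genes had one, 0.00521% were called and 1.84% did not overlap between the groups. For ZT13 against ZT1 it was 0 of 9, beside 5.37%, 0.0208% and 1.52% of all genes. For ZT19 against ZT1 it was 3 of 9 (Rsad2, Irf1 and Stat2), beside 21.6%, 0.0156% and 8.49%, and 2 of 9 did not overlap. For ZT13 against ZT7 it was 0 of 9, beside 2.59%, 0.0937% and 1.02%, and 1 of 9 did not overlap. For ZT19 against ZT7 it was 1 of 9 (Rsad2), beside 19.7%, 0.0156% and 1.97%, and for ZT19 against ZT13 3 of 9 (Rsad2, Irf1 and Ifit2), beside 19.2%, 0.588% and 2.51%. DESeq2 called 2 of 9 in ZT19 against ZT1 (10.4% of the genes with an adjusted p), 1 in ZT19 against ZT7 (11.8%) and 1 in ZT19 against ZT13 (9.33%). It called 0 in ZT7 against ZT1 (0.113%), ZT13 against ZT1 (0.606%) and ZT13 against ZT7 (0.667%). ZT19 thus entered 7 of the 8 differences with an unadjusted p of at most 0.05, in comparisons where about 1 in 5 of all genes had one. Whether fewer copies per LEC or fewer LECs among the sorted cells lay behind a lower count was not tested. The lymphatic endothelial markers had a median sum of 65495 normalized counts at ZT19, beside 79610, 65189 and 74459 at ZT1, ZT7 and ZT13.

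**Figure D1:**
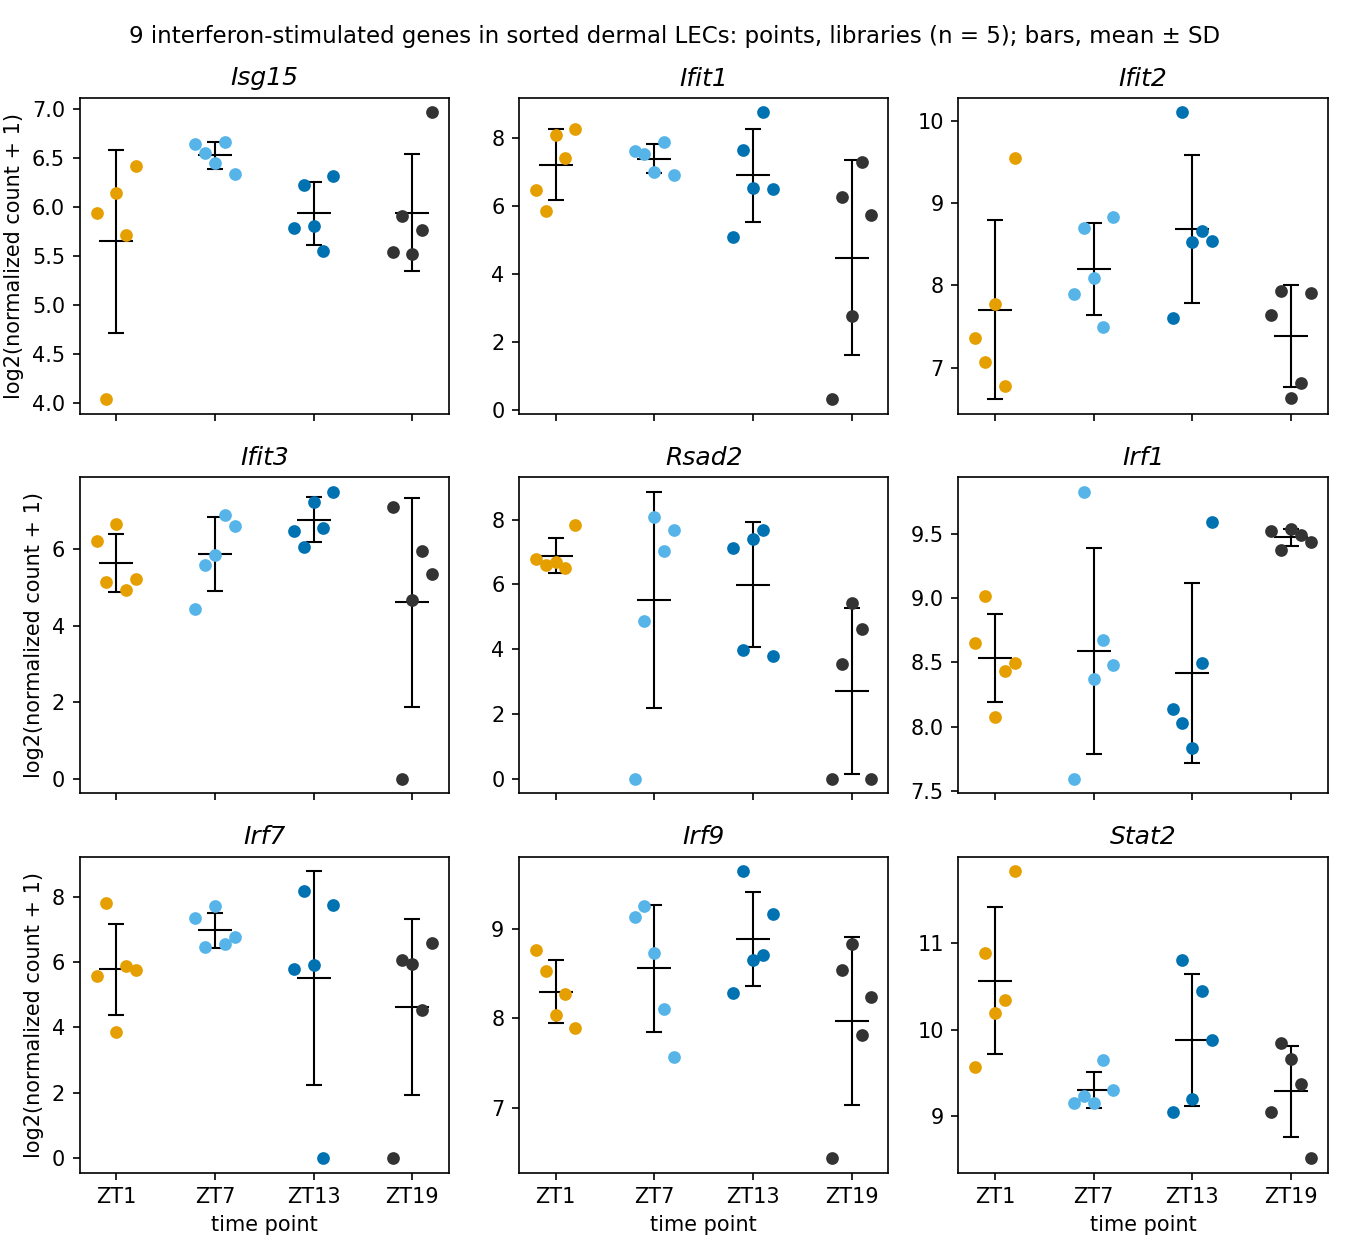
Log2(normalized count + 1) of each of the 9 genes at ZT1, ZT7, ZT13 and ZT19; points are libraries (n = 5 per time point, replicate 1 to 5 from left to right), bars the mean and SD, and each panel has its own axis. Rsad2 is at 0 in 2 ZT19 libraries, and the 5 ZT19 libraries of Irf1 lie close together between 662 and 744 normalized counts.

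Per length of exon, the order of the genes by mean level over 20 libraries was Stat2, Irf1, Isg15, Ifit2, Irf9, Ifit1, Ifit3, Irf7 and Rsad2. Stat2 stood at 172 ± 126 (SD, n = 20) normalized counts per kb, higher than 82.5% of the genes tested, and Rsad2 at 21.5 ± 19.8, higher than 42.3%. No neighbours in this order differed beyond their spread over the libraries: the smallest adjusted p of a two-sided sign-flip permutation test over the 8 neighbouring pairs was 0.178. For comparison, the receptor chains Ifnar1 and Ifnar2 were at 181 ± 82.7 and 406 ± 118 normalized counts per kb. As a background level, 1446 odorant and vomeronasal receptor genes, which are known mainly from the nose, had a median of 1.24 and at most 5.50 normalized counts per kb in a library. This background was itself unequal, with a median of 0.233 at ZT19, beside 1.62, 2.27 and 2.17 at ZT1, ZT7 and ZT13. It was 5.50 in the library with the lowest share of reads on genes and 0.0408 in the one with the highest, the same direction as that of Rsad2 described below, and its part in the members' levels was not tested. Stat2 exceeded the background of its own library by a median factor of 162 over the libraries, Irf7 by 8.28 and Rsad2 by 11.4. Rsad2 was at or below it in 3 libraries, Irf7 in 2 and Ifit3 in 1, and the other 6 genes in none.

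**Figure D2:**
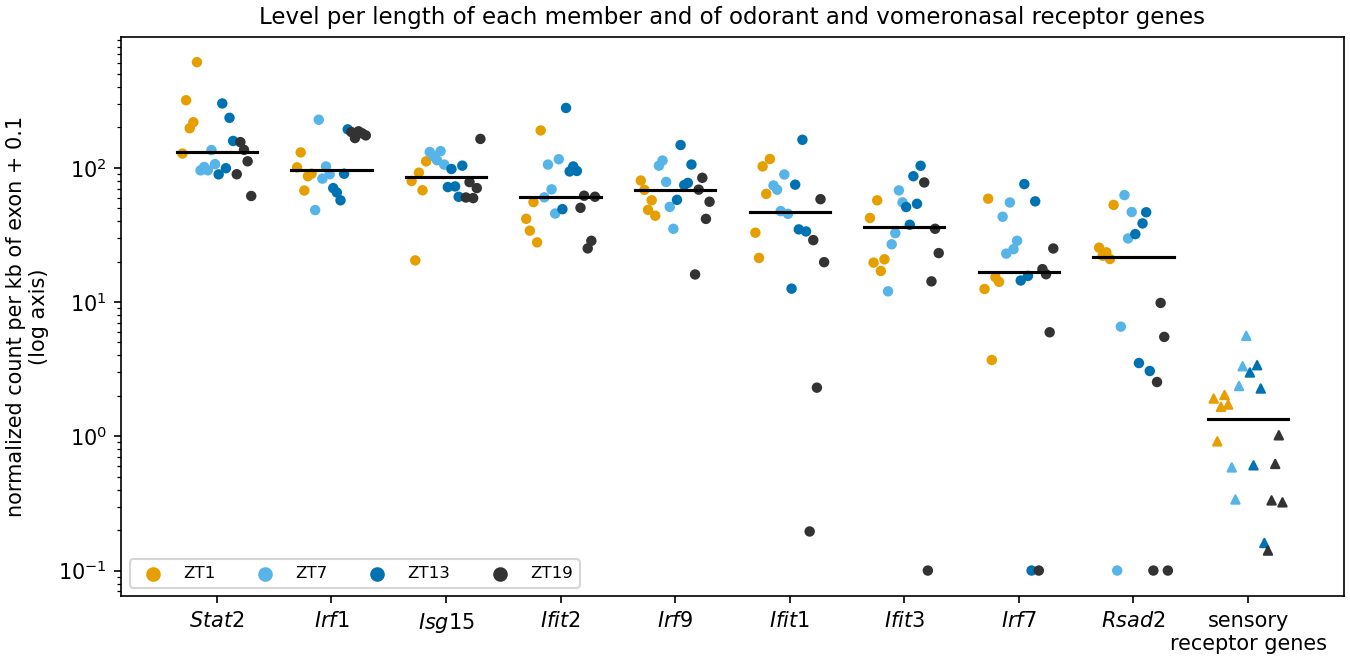
Normalized count per kb of exon plus 0.1, on a log axis, for each of the 9 genes in order of their mean and, as triangles, for odorant and vomeronasal receptor genes as 1 group; each point is 1 of 20 libraries, coloured by time point, and black lines are medians. Stat2 has the highest median and Irf7 and Rsad2 the lowest, and points at 0.1 are libraries with 0 counts.

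Rsad2 encodes viperin, an enzyme that makes a chain-terminating nucleotide and restricts many viruses. The gene lies at chr12:26442746-26456452 on the minus strand (GRCm38, positions of all genes from GENCODE M21). Rsad2 had 110, 95.7, 101, 90.3 and 229 normalized counts in ZT1 replicates 1 to 5, and 0, 28.0, 271, 129 and 203 in ZT7 replicates 1 to 5. It had 139, 14.8, 167, 202 and 12.9 in the ZT13 libraries, and 0, 10.6, 42.3, 23.4 and 0 in the ZT19 libraries. Every ZT19 library was thus below every ZT1 library, whereas ZT7 and ZT13 each held both high and low libraries. A count of 0 allowed up to 3 counts, by counting error alone, or 3.67 normalized counts in ZT7 replicate 1, 0.761 in ZT19 replicate 1 and 1.65 in ZT19 replicate 5.

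The mean of Rsad2 was 15.3 ± 17.9 (SD, n = 5) at ZT19 and 125 ± 58.5 at ZT1. The log2 difference of ZT19 from ZT1 was -3.04 ± 1.29 (SE), with an unadjusted p of 0.0262 and an adjusted p of 0.169 in edgeR. ZT19 and ZT1 did not overlap, as for 8.49% of all genes. Against ZT7 and ZT13 the log2 differences of ZT19 were -3.07 ± 1.29 (adjusted p = 0.195) and -2.83 ± 1.28 (adjusted p = 0.224), and these comparisons share the ZT19 libraries. DESeq2 called the difference from ZT1 (adjusted p = 0.0491) and that from ZT7 (adjusted p = 0.0280), and not that from ZT13 (adjusted p = 0.0577). Without ZT13 replicate 5 and ZT19 replicate 1, the log2 differences of ZT19 from ZT1, ZT7 and ZT13 were -2.71, -2.74 and -2.79. With 1 library left out at a time in edgeR, the difference from ZT1 was -3.92 to -2.71. The highest unadjusted p of these fits was 0.0534 against ZT1, 0.0675 against ZT7 and 0.0771 against ZT13.

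Over the 20 libraries, Rsad2 followed the share of reads on genes. In the 11 libraries with a share below 30% it had 90.3 to 271 normalized counts, and in the 9 libraries with a share of 35% or more it had 0 to 42.3, with no overlap. Such a gap in that direction was seen for 2.10% of all genes tested; the limit of 30% was set after the values were seen. At ZT7, replicates 1 and 2 had shares of 37.7% and 62.3% and the lowest Rsad2 counts of that time point, and at ZT13 the same was true of replicates 2 and 5, with shares of 39.7% and 79.9%. All 5 ZT1 libraries were in the first set and all 5 ZT19 libraries in the second, so that the comparison of ZT19 with ZT1 was also a comparison of high with low shares.

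The correlation of log2 Rsad2 with the log2 odds that a read was on a gene was r = -0.78 (Pearson, permutation p = 0.00021, adjusted p = 0.00189 over the 9 relations tested) and rho = -0.91 (Spearman, permutation p = 1e-05, the smallest that 100000 permutations can give; adjusted p = 9e-05). Without the 2 libraries farthest from the median share, r was -0.75. Within time points, with each time point's mean removed, r was -0.69 (permutation p = 0.00657, adjusted p = 0.0591). Within the 11 libraries of low share r was -0.70 and within the other 9 it was -0.23. With the log2 odds as a covariate in edgeR, the difference of ZT19 from ZT1 was -1.05 (adjusted p = 0.849). The 5 leukocyte markers summed to 73.2 to 583 normalized counts at ZT1 and 15.2 to 176 at ZT19, each at 0 in 2 to 8 of the 20 libraries and 0 of 5 called among the time points; with their mean level as a covariate the difference was -1.96 (adjusted p = 0.425). Over all genes tested, the median correlation with the log2 odds was -0.35. Whether the time of day, the share of reads on genes or both went with the low Rsad2 counts of ZT19 cannot be told apart between ZT1 and ZT19.

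**Figure D3:**
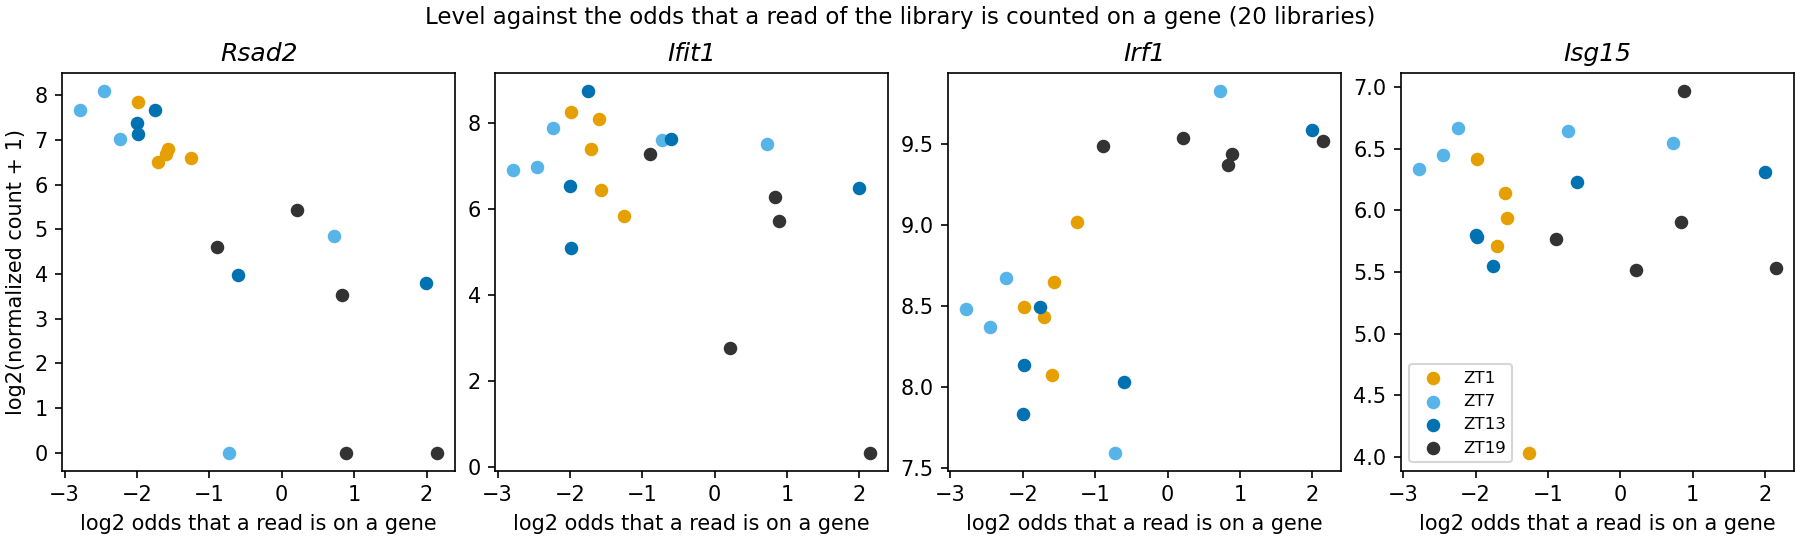
Log2(normalized count + 1) of Rsad2, Ifit1, Irf1 and Isg15 (y axis) against the log2 odds that a read was on a gene (x axis) in 20 libraries, coloured by time point. The odds are reads on genes over reads outside all genes, without ambiguous reads or reads aligned to more than 1 place. Rsad2 is lower and Irf1 higher in libraries with more reads on genes (r of -0.78 and 0.71), and Isg15 shows little relation (r = 0.03).

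Irf1, an interferon regulatory factor that binds the same promoters and is induced by interferon gamma, went the other way. The gene lies at chr11:53770014-53778374 on the plus strand. Irf1 had 400, 518, 269, 344 and 359 normalized counts in ZT1 replicates 1 to 5, and 192, 907, 330, 407 and 356 in the ZT7 libraries. It had 280, 260, 227, 359 and 769 in the ZT13 libraries, and 735, 662, 744, 718 and 693 in the ZT19 libraries. The ZT19 libraries were close to each other and all above the ZT1 libraries, and only ZT7 replicate 2 and ZT13 replicate 5 reached them, which were the libraries of highest share of reads on genes at their time points.

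The mean of Irf1 was 710 ± 32.9 at ZT19 and 378 ± 91.3 at ZT1 (SD, n = 5 each). The log2 difference was 0.92 ± 0.39 (SE; unadjusted p = 0.0237, adjusted p = 0.162), and ZT19 against ZT13 gave 0.89 ± 0.38 (unadjusted p = 0.0278, adjusted p = 0.201) in edgeR. Without ZT13 replicate 5, the latter became 1.33 with an adjusted p of 0.0476 in edgeR, the single call among the members that leaving out 1 library gave, and it was 1.31 with an adjusted p of 0.0807 without that library and ZT19 replicate 1, where the difference of ZT19 from ZT1 was 0.90. Irf1 correlated with the log2 odds that a read was on a gene at r = 0.71 (permutation p = 0.00049, adjusted p = 0.0022) and rho = 0.59 (permutation p = 0.00696, adjusted p = 0.0313), and at r = 0.64 without the 2 libraries farthest from the median share. Within time points r was 0.59 (permutation p = 0.0422, adjusted p = 0.19). With the odds as a covariate the log2 difference of ZT19 from ZT1 was 0.31 (adjusted p = 0.865). Among 10 genes of the response to tissue dissociation, such as Fos and Jun, 2 were called among the time points, and their summed level was 13378 to 33773 normalized counts at ZT1 and 26674 to 35928 at ZT19. It was highest at ZT13, with 26610 to 73638, where the mean log2 level of Irf1 was lowest, and their part in the Irf1 level was not tested.

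Stat2 is the partner of Irf9 in ISGF3 and had the smallest p of the members. It lies at chr10:128270559-128292849 on the plus strand. Stat2 had 757, 1889, 1168, 1295 and 3630 normalized counts in ZT1 replicates 1 to 5, and 567, 601, 568, 803 and 631 in the ZT7 libraries. It had 529, 1788, 588, 1397 and 939 in the ZT13 libraries, and 530, 920, 807, 662 and 365 in the ZT19 libraries. ZT1 was the time point of the highest counts and of the widest range, but its lowest library, replicate 1, lay inside the ranges of the other time points.

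The mean of Stat2 was 1748 ± 1127 at ZT1, the highest, 1048 ± 539 at ZT13, 657 ± 220 at ZT19 and 634 ± 98.3 at ZT7 (SD, n = 5 each). In edgeR the test among the time points gave an unadjusted p of 0.00188 and an adjusted p of 0.123. Relative to ZT1, the log2 difference of Stat2 in edgeR was -1.44 ± 0.39 (SE) at ZT7 (unadjusted p = 0.00108, adjusted p = 0.684) and -1.40 ± 0.39 at ZT19 (unadjusted p = 0.00138, adjusted p = 0.093). DESeq2 called the second (adjusted p = 0.00978) and not the first (adjusted p = 0.214). Without ZT1 replicate 5, the library with 3630, the unadjusted p in edgeR were 0.0115 and 0.0153 and the second difference was -0.95, and without ZT13 replicate 5 and ZT19 replicate 1 the second was -1.34. Stat2 showed no relation with the share of reads on genes that passed the test (r = -0.23, permutation p = 0.320, adjusted p = 0.720, rho = -0.09, permutation p = 0.712, adjusted p = 0.798), and with the odds as a covariate in edgeR the difference of ZT19 from ZT1 was also -1.34. With the keratinocyte and fibroblast marker levels as covariates it was -0.85 (adjusted p = 0.241 in edgeR), and that of ZT7 from ZT1 was -1.04 (adjusted p = 0.421). Leaving out ZT19 altogether left Stat2 with an unadjusted p of 0.00609 among ZT1, ZT7 and ZT13 (adjusted p = 0.426).

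Ifit1, Ifit2 and Ifit3 encode tetratricopeptide-repeat proteins that bind viral RNA or work in complexes that do. They are neighbours on chromosome 19, at chr19:34640871-34650009, chr19:34550694-34576419 and chr19:34583531-34588731, all on the plus strand. Ifit2 had 163, 133, 218, 109 and 745 normalized counts in ZT1 replicates 1 to 5, and 236, 415, 271, 179 and 455 in the ZT7 libraries. It had 193, 1096, 369, 402 and 372 in the ZT13 libraries, and 198, 243, 98.2, 112 and 239 in the ZT19 libraries. ZT13 was the highest time point by mean and ZT19 the lowest, and their ranges overlapped because ZT13 replicate 1 was within the ZT19 range. The log2 difference of ZT19 from ZT13 was -1.45 ± 0.52 (SE; unadjusted p = 0.00982, adjusted p = 0.125) in edgeR, and DESeq2 called it (adjusted p = 0.0400). Without ZT13 replicate 2, the library with 1096, it was -0.91 (unadjusted p = 0.0880), and without ZT13 replicate 5 and ZT19 replicate 1 it was -1.58. With the keratinocyte and fibroblast marker levels as covariates it was 0.10 (adjusted p = 0.954), and the summed keratinocyte markers given above did not overlap between ZT13 and ZT19.

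Ifit1 had 87.1, 56.4, 272, 170 and 309 normalized counts in the ZT1 libraries, and 196, 182, 126, 237 and 120 in the ZT7 libraries. It had 33.2, 199, 92.1, 429 and 88.9 in the ZT13 libraries, and 0.254, 76.6, 5.85, 155 and 52.4 in the ZT19 libraries. Its lowest values, from 1 and 9 counted reads, were thus at ZT19, where the 5 libraries ran over a wide range that overlapped every other time point. The log2 difference of ZT19 was -1.63 ± 0.89 from ZT1, -1.59 ± 0.89 from ZT7 and -1.56 ± 0.89 from ZT13 (SE; adjusted p in edgeR of 0.282, 0.322 and 0.337). Ifit1 correlated with the log2 odds that a read was on a gene at r = -0.54 (permutation p = 0.0122, adjusted p = 0.0367) but with rho = -0.42 (permutation p = 0.0660, adjusted p = 0.198), and r was -0.35 without the 2 libraries farthest from the median share, so the relation rested on those libraries. Within time points r was -0.27 (permutation p = 0.271, adjusted p = 0.692).

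Ifit3 ranged from 29.6 to 99.7 normalized counts at ZT1, from 20.8 to 118 at ZT7, from 65.5 to 181 at ZT13 and from 0 to 136 at ZT19. The 0 was ZT19 replicate 2, and its 3-count limit was 0.991 normalized counts. The test among the time points gave an adjusted p of 0.826 in edgeR. Of the 100-base stretches of the Ifit3 transcripts, 31.7% also occur in Ifit3b, a near copy that is not among the symbols of the files, and 3.29% of those of Ifit1 occur in Ifit1bl2. Reads from the shared stretches align to more than 1 place, so the Ifit3 count is uncertain and is the least comparable with the other members.

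Isg15, a ubiquitin-like protein that is attached to other proteins after interferon, lies at chr4:156199424-156200818 on the minus strand. Isg15 had 60.3, 15.4, 69.5, 51.4 and 84.4 normalized counts in the ZT1 libraries, and 99.2, 92.6, 86.2, 101 and 79.8 in the ZT7 libraries. It had 54.3, 74.0, 54.9, 45.9 and 78.4 in the ZT13 libraries, and 45.4, 59.1, 44.9, 53.4 and 124 in the ZT19 libraries. Every ZT7 library was above every ZT13 library, as for 1.02% of all genes in either direction, but the log2 difference of ZT13 from ZT7 was -0.58 ± 0.75 (SE) with an unadjusted p of 0.449. The SD within time points on the log2 scale, 0.58, was among the smallest at this level of expression: of 1325 genes with a mean log2 level within 0.5 of that of Isg15, 0.528% had a smaller one. Its correlation with the log2 odds that a read was on a gene was r = 0.03 (permutation p = 0.885, adjusted p = 0.975, rho = -0.12, permutation p = 0.618, adjusted p = 0.798).

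Irf7, the factor that amplifies the production of type I interferons, lies at chr7:141262706-141266481 on the minus strand. It ranged from 13.6 to 222 normalized counts at ZT1, from 86.3 to 208 at ZT7, from 0 to 285 at ZT13 and from 0 to 94.3 at ZT19. ZT1, ZT13 and ZT19 each held libraries below the ZT7 range, and the zeros in ZT13 replicate 4 and ZT19 replicate 1 allowed up to 3.20 and 0.761 normalized counts. Irf9, the DNA-binding part of ISGF3, lies at chr14:55603571-55610030 on the plus strand. It ranged from 236 to 433 normalized counts at ZT1, from 189 to 610 at ZT7, from 311 to 796 at ZT13 and from 86.0 to 453 at ZT19. The adjusted p among the time points was 0.812 for Irf7 and 0.558 for Irf9, and the ranges of all 4 time points overlapped for each. Irf9 shares 123 exonic bases with Rnf31 on the same strand, and Irf7 shares 45 with Phrf1 on the opposite strand.

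**Figure D4:**
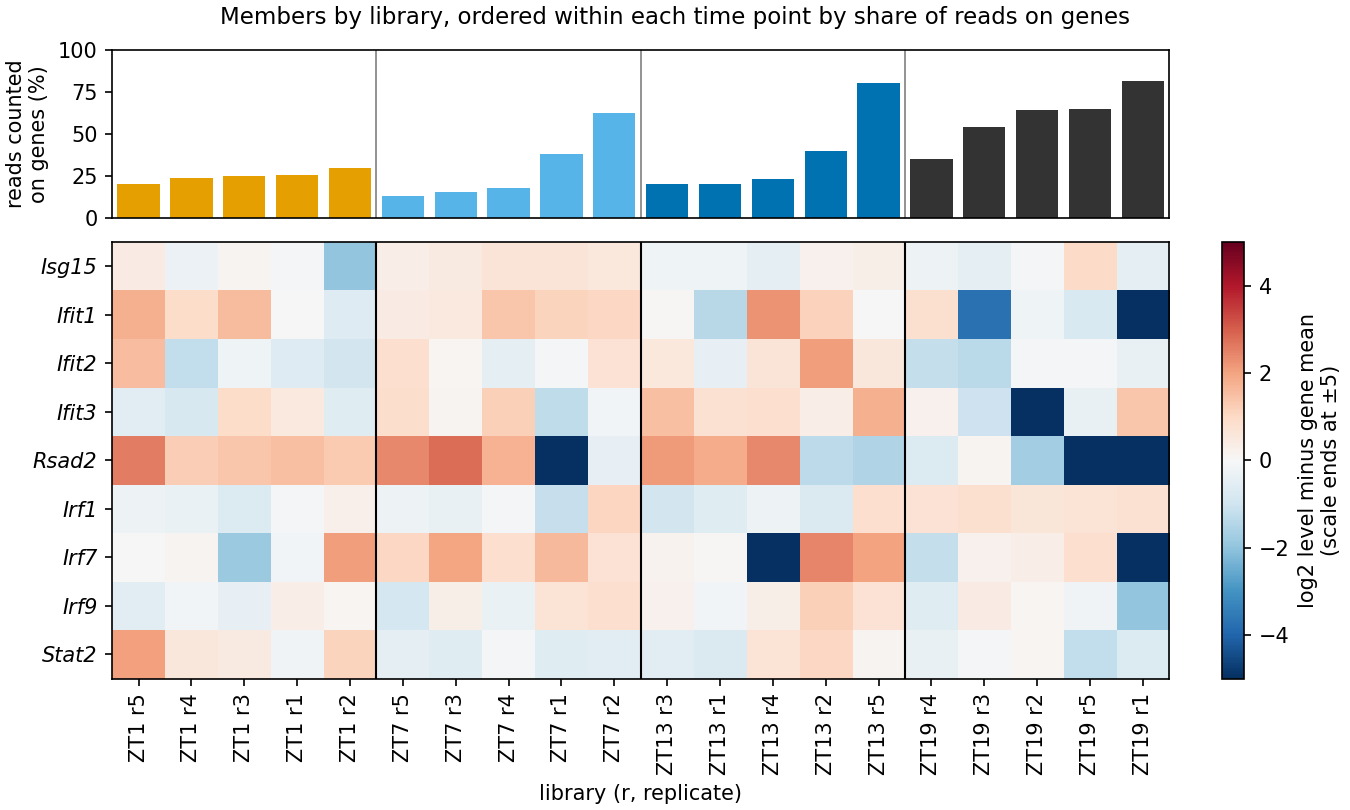
Upper panel, percent of reads counted on genes in each library (bars from 0); lower panel, log2(normalized count + 1) of each of the 9 genes minus its mean over the 20 libraries, in colour, with libraries ordered within each time point by that percent. Rsad2 is lower in the 2 rightmost libraries of ZT7 and of ZT13 than in the other 3, Irf1 is highest there in the rightmost library and above its mean in all 5 of ZT19, and colours end at ±5.

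No relation between 2 of the 9 genes passed the test over all pairs. Of the 36 pairs of members, 22 had a positive Pearson correlation of log2 levels over the 20 libraries, with a median r of 0.07 and a range of -0.44 to 0.57, and 0 pairs had an adjusted permutation p of 0.05 or less, while 2 had an unadjusted p of 0.05 or less. The highest was that of Irf7 and Irf9, with r = 0.57 (permutation p = 0.0137, adjusted p = 0.415) and rho = 0.48 (permutation p = 0.0360, adjusted p = 0.432), and r = 0.59 within time points (permutation p = 0.0123, adjusted p = 0.443). It was r = 0.28 without the 2 libraries farthest from the median of the members' mean, ZT19 replicates 1 and 2, and so rested on them. The lowest was that of Ifit1 and Irf1, with r = -0.44 (permutation p = 0.0474) over all libraries and r = -0.10 within time points (permutation p = 0.525). With both the time point and the odds that a read was on a gene removed, r of Rsad2 and Irf1 was 0.78, beside 0.06 with the time point alone removed, and it was 0.50 without ZT7 replicate 1, in which both genes were lowest for ZT7; 0 of the 36 pairs had an adjusted p of 0.05 or less in that setting and 3 an unadjusted one.

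The median range of the time point means was 1.30 on the log2 scale for the 9 genes and 1.37 for all genes tested, and the median SD within time points was 0.82 and 1.25. By sign alone, 7 of the 9 genes were lower at ZT19 than at ZT13, with a median log2 difference of -1.15 beside -0.22 for all genes tested, of which 42.1% were higher at ZT19. In ZT19 against ZT7, which shares the ZT19 libraries, the count was 7 of 9 with -0.53 beside -0.20, and 42.6% of all genes were higher at ZT19. In ZT19 against ZT1 it was 7 of 9 with -0.60 beside -0.39, and 37.5% of all genes were higher at ZT19, but it was 5 of 9 when total counts were used without normalization factors. That scaling moved the median of all genes by up to 0.39 (ZT7 against ZT1), and these directions are relative to the scaling used.

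The genes whose pattern was most like the members' mean over the 20 libraries, by Pearson r among 12551 genes with at least 50 normalized counts, were Mtmr7 (r = 0.90), Armc3 (r = 0.88) and Nrcam (r = 0.88), followed by Adam22, Egln3, Ccser1, Fam184a, Mthfd1l, Nr2c1 and Glis2 down to r = 0.84. None of the 10 was on the wider interferon list, and the r values are a description over libraries that differ in depth and in the share of reads on genes. The members' mean used centred log2 levels that were not scaled. Rsad2 and Irf7, with SDs within time points of 2.33 and 2.24, thus weighed more in it than Irf1, with 0.56. The lowest library by that mean was ZT19 replicate 1, at -2.06.

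A wider list of 130 genes of the interferon system, grouped by role, had 127 members in the files, and 104 passed the filter on low counts. In edgeR's test among the 4 time points, 0 of the 104 genes were called after adjustment and for 14 the unadjusted p was at most 0.05, beside the 0.422% and 15.7% of all genes, and DESeq2 called 5, beside 3.45% of all genes. Between pairs of time points, edgeR called 0 of the wider list and DESeq2 made 35 calls, 10 in ZT19 against ZT1, 13 in ZT19 against ZT7 and 12 in ZT19 against ZT13, beside 10.4%, 11.8% and 9.33% of all genes. The 20 interferon genes themselves, which encode the ligands, did not pass the filter on low counts in edgeR: 0 of 20 were tested there. DESeq2, run without that filter, called 2 of them, named here after their values were seen: Ifna6, lower at ZT19 than at ZT7 (adjusted p = 0.0368), and Ifne, lower at ZT19 than at ZT13 (adjusted p = 0.0187). Ifna6 was at 0 in all 5 ZT19 libraries and Ifne in 4 of them. Summed, they had 0 to 14.3 normalized counts per library at ZT19, 35.9 to 125 in the ZT1 libraries, 1.22 to 399 in those of ZT7 and 0 to 187 in those of ZT13. Per kb of exon this was a median of 2.87 normalized counts over the 20 libraries, beside 1.24 for the odorant and vomeronasal receptor genes, and at or below those in 5 libraries.

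Of the 6 receptor chains, Ifngr1, the ligand-binding chain for interferon gamma, had the smallest p (unadjusted p = 0.0211, adjusted p = 0.250 in edgeR). Its mean was 782 ± 208 normalized counts at ZT1 and 1711 ± 506 at ZT19 (SD, n = 5). DESeq2 called that difference (adjusted p = 0.0254), and edgeR called it without ZT19 replicate 4 (adjusted p = 0.0418). The highest Ifngr1 counts of ZT7 and ZT13, 1923 and 1963, were in the libraries with the highest shares of reads on genes at those time points, and the lowest of ZT19, 1024, in the one with the lowest; the part of that share was not tested. Ifngr2 was at 413 to 492 normalized counts by time point mean. Of the chains for type I interferons, Ifnar1 was at 868 to 1512 and Ifnar2 at 1100 to 1463, with adjusted p of 0.321 and 0.800. Il10rb, shared by the receptors for interferon lambda and interleukin-10, ranged from 440 to 881 by time point mean, and Ifnlr1, its partner for interferon lambda, from 33.1 to 96.2. The kinases Jak1, Jak2 and Tyk2 had adjusted p of 0.766, 0.413 and 0.533 in edgeR. Both chains of the type I receptor, Jak1, Tyk2, Stat2 and Irf9 were thus present in every LEC library. Among the time points, edgeR called 0 of the receptors, kinases and STATs of the wider list (1 at an unadjusted p of 0.05), as did DESeq2. Stat2 is one of the members and not on that list, and DESeq2 called it (adjusted p = 0.0300). Of 6 other Irf factors, 0 had an unadjusted p of 0.05 or less, with adjusted p of 0.646 for Irf2 and 0.716 for Irf4.

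Of the nucleic acid sensors and adaptors, Ifih1 (the RNA sensor MDA5) had 41.2 ± 32.2 normalized counts at ZT19 and 112 ± 66.8, 175 ± 46.6 and 187 ± 87.7 at ZT1, ZT7 and ZT13, with an adjusted p of 0.254 in edgeR and of 0.0372 in DESeq2. Tlr9, a DNA sensor of dendritic cells and B cells, was at 0 in all 5 ZT19 libraries, the time point with the lowest median number of genes with a count (15613), and in 3 of the other 15, and reached 149.5 (adjusted p = 0.200 in edgeR and 0.0334 in DESeq2). Myd88, the adaptor of most Toll-like receptors, was next (adjusted p = 0.527). Among the negative regulators, Socs3 and Adar had unadjusted p of 0.0152 and 0.0172 (adjusted p = 0.235 and 0.240), with the highest mean of Socs3 at ZT13 (729 ± 488) and that of Adar at ZT1 (2346 ± 1605). Without ZT13 replicate 5 the ZT13 mean of Socs3 was 518 ± 144 (SD, n = 4), below that of ZT19 (664 ± 565). Trex1, a nuclease that removes stray DNA, was next (adjusted p = 0.417). Usp18, which removes Isg15 from proteins and restrains the receptor, had 72.5 ± 36.4 at ZT1 and 164 ± 69.6 at ZT7 (adjusted p = 0.796).

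Among 45 other effectors tested, 6 had an unadjusted p of 0.05 or less, beside 15.7% of all genes. Ifi35, a binding partner of Nmi, had 411 ± 107 normalized counts at ZT1 and 973 ± 237 at ZT19 (adjusted p = 0.195 in edgeR and 0.0323 in DESeq2). Oas1a, a sensor of double-stranded RNA, was at 0 in all 5 ZT19 libraries and in 2 of the other 15, and reached 120.4 (adjusted p = 0.145 in edgeR and 0.00986 in DESeq2). Over all libraries Oas1a had a mean of 14.3 and a median of 6.44 normalized counts. Phf11d had its highest mean at ZT13 (731 ± 626 normalized counts, adjusted p = 0.272).

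Of 19 genes mainly induced by interferon gamma, 3 had an unadjusted p of 0.05 or less, again beside 15.7% of all genes. Iigp1, a GTPase that attacks the vacuoles of parasites, had 55, 38.3, 102, 122 and 158 normalized counts in the ZT19 libraries. It had 241, 401, 204, 715 and 392 in the ZT13 libraries, so that every ZT19 library was below every ZT13 library, where 2.51% of all genes did not overlap. The log2 difference of ZT19 from ZT13 was -2.05 ± 0.50 (SE; adjusted p = 0.0511 in edgeR). Its adjusted p among the time points was 0.148 in edgeR and 0.00627 in DESeq2, the smallest of the wider list in the latter. Gbp5, another GTPase of this group, had 80.7 ± 68.3 at ZT13 and 6.03 ± 5.00 at ZT19 (adjusted p = 0.317). The chemokine Cxcl11 was at 0 in all 5 ZT19 libraries and in 5 of the other 15, and reached 37.7. The level of Cxcl11 was low, with a mean of 9.04 normalized counts over all libraries. The part of the background level and of the share of reads on genes in its zeros was not tested.

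**Figure D5:**
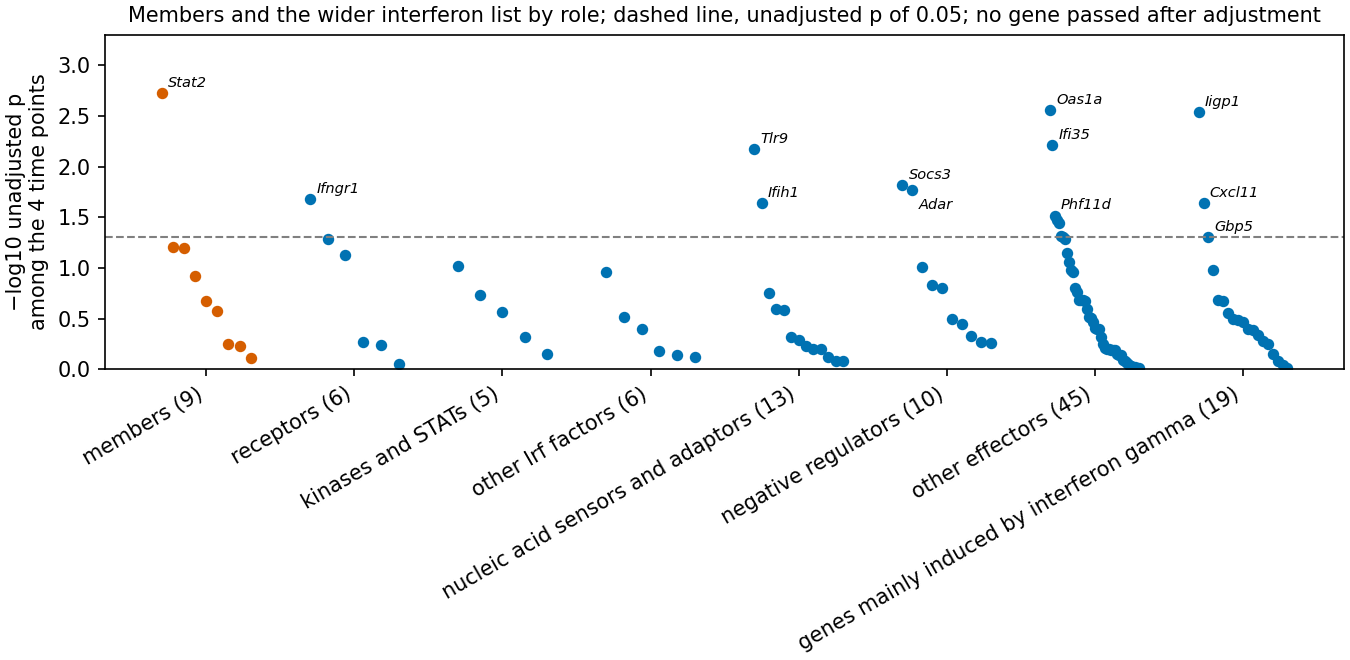
−log10 of the unadjusted p of edgeR's test among the 4 time points for the 9 genes and for the tested genes of the wider interferon list by role (number tested in brackets), each ordered by p; the dashed line is an unadjusted p of 0.05. Stat2 has the smallest p of all genes drawn, and 14 genes of the wider list lie at or above the line.

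The 6 markers of macrophages and dendritic cells found in the files summed to 3.55 to 484 normalized counts per library and the 2 T cell markers to 0 to 68.6, with 0 called among the time points in each list. Of 5 markers of plasmacytoid dendritic cells, the main producers of type I interferon, Siglech and Ccr9 were at 0 in 5 and 4 of 20 libraries. Their means were 36.1 and 53.7 normalized counts, while Tcf4, Bst2 and Il3ra had counts in all 20. The list summed to 3334 to 16429, mostly from Tcf4 and from Bst2, which is also on the wider interferon list. Tcf4, Bst2 and Il3ra had means of 6230, 1035 and 70.5. The part of these cell types in the levels of the 9 genes was not tested.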

How the data were processed

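RNA of sorted dermal LECs was sequenced for 20 libraries, 5 at each of 4 time points. Per the study's methods and the submitters' processing notes, the authors aligned the reads to mm10 with STAR and counted them per gene with HTSeq 1.0.0, and DESeq2 2.11.40.6 is also named there; the deposited values are raw counts of reads per gene symbol, 1 file per library, and the annotation and strand setting used are not given in the sources used here. The 5 special HTSeq rows (reads on no gene, ambiguous, not aligned and the like) were left out of library sizes and tests, and the share of reads on genes was taken from the first of them.

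Counts were tested with edgeR 4.0.16 (quasi-likelihood F-test, TMM factors, filterByExpr by time point, 20 libraries in 1 fit, Benjamini-Hochberg adjustment over the 19209 genes tested, threshold 0.05; all unadjusted and adjusted p without another name are from this test) in R 4.3.3. A normalized count is a count divided by the library's effective size relative to the geometric mean of these sizes, and log2 levels used a pseudocount of 1. Relations across libraries used two-sided permutation tests with 100000 resamples, written with numpy 2.4.6, with ranks from scipy 1.17.1. DESeq2 1.42.0, other scalings, filters, covariates, a replicate block and leaving out each library in turn were alternatives. The code was tested on simulated data. Gene positions and exonic lengths came from GENCODE M21 and promoters from RefSeq, both on GRCm38, and 98.5% of the symbols had a length.

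The 9 members, the wider list and the tests were chosen with earlier results of these data known. Of the wider list, the 3 genes of each role with the smallest unadjusted p were named, besides the receptors, Jak1, Tyk2, Ifit3b and Usp18; 2 genes that this rule names are not reported here. Nothing says that replicates were sorted on separate days, so p-values measure the spread between these pools. The highest correlation between 2 libraries was 0.910, so none was taken as a duplicate. Deviations of same-numbered samples correlated at 0.079 to 0.32 between ZT1 and ZT13, above 0.1 in 2 of 5 pairs, and at -0.54 to 0.34 between the other time points, with at most 3 of 5 above 0.1, so the numbers were not used to pair samples.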

Additional observations from a re-analysis of the deposited data

Results flagged for a closer look

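In 2 of the 36 sets of 5 libraries (9 genes at 4 time points), 1 library stood apart from the other 4 by Dixon's criterion on the log2 scale of normalized counts plus 1, where chance alone flags about 1 in 20 sets, or 1.8 of 36. Isg15 had 124 normalized counts in ZT19 replicate 5 and 44.9 to 59.1 in the other ZT19 libraries, and on the log2 scale the gap took up 0.731 of the range, above the critical value of 0.71. Rsad2 had 229 normalized counts in ZT1 replicate 5 and 90.3 to 110 in the other ZT1 libraries, with a gap of 0.790 of the log2 range. On the linear scale, a choice made after the data were seen, the highest library stood apart in 7 sets: these 2 (gaps of 0.820 and 0.859 of the range), Ifit2 at ZT1 (0.829) and ZT13 (0.769), Irf7 at ZT1 (0.789), Irf1 at ZT13 (0.757) and Stat2 at ZT7 (0.729). The shares of reads on genes in these libraries were 64.9% and 20.2%. The second was the lowest of the 5 ZT1 libraries, and its part in the value of Rsad2 was not tested.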

How the results depend on the processing

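Of the members called among the time points, DESeq2 gave 1 in place of 0 (Stat2), and between pairs 4 in place of 0. Of the wider list it called 5 in place of 0 among the time points (Ifih1, Tlr9, Ifi35, Oas1a and Iigp1) and made 35 calls between pairs, all with ZT19, where it also called 9.33% to 11.8% of all genes. Leaving out 1 library at a time gave 0 to 1 calls between pairs (1 without ZT13 replicate 5) and 0 among the time points and for the 24 h curve, and 0 of the wider list among the time points; between pairs, the wider list had 1 call without ZT1 replicate 2 or ZT13 replicate 3, 5 without ZT13 replicate 5 and 4 without ZT19 replicate 4. It had 4 with the marker covariates (Cxcl11, Lgals9, Oas1a and Tlr9, ZT19 against ZT7, adjusted p of 0.0471 to 0.0496), and with total counts Ifi35 (ZT19 against ZT1, 0.0458) besides Iigp1. The adjusted p of Stat2 among the time points was 0.0300 to 0.304 over 30 alternatives. With keratinocyte and fibroblast marker levels as covariates, the log2 difference of Ifit2, ZT13 minus ZT19, reversed to -0.105; the cause was not tested. Of the other values for single members, in the test among the time points and, for the correlation with the share of reads on genes, with another pseudocount, 286 kept their direction and their side of the threshold, and Stat2 passed it under DESeq2. By rank or within time points, that correlation changed sign for Isg15, Ifit2 and Irf7, and the adjusted p of Ifit1, Rsad2 and Irf1 rose above 0.05 in 1 or both. edgeR called Iigp1 for ZT19 against ZT13 under 6 alternatives (adjusted p of 0.0220 to 0.0416), as did DESeq2 (0.000323).

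With the replicate number as a block, 0 members were called among the time points, for the curve or between pairs (3 and 11 at an unadjusted p of 0.05 among the time points and between pairs), and 0 of the wider list; between no 2 time points did all 5 same-numbered samples correlate above 0.1. Without ZT13 replicate 5 and ZT19 replicate 1 together, and without ZT19 (both chosen after the data were seen), 0 members and 0 of the wider list were called among the time points. Rsad2, Irf7 and Ifit3 had 0 counts in some libraries, all of them with more reads on genes than the median of 9379794. By counting error alone, a 0 there allowed up to 0.761 to 3.67 normalized counts. The values without ZT7 replicate 1 for Rsad2 with Irf1 and without ZT13 replicate 5 for Socs3 were also chosen after the data were seen.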
